A study of Mus musculus with 93 samples.

Results

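Transforming growth factor beta is a secreted cytokine that restrains the activation of T cells and shapes the behavior of macrophages and neutrophils. Its ligand, made latent and released by activation, brings together a type 2 and a type 1 serine/threonine kinase receptor, and the type 1 receptor phosphorylates SMAD2 and SMAD3. These join SMAD4, enter the nucleus and act on target genes, while SMAD7 blocks the receptor and SKI, SKIL and TGIF1 hold SMAD-bound genes in check. Platelets are a large store of the ligand in blood. The 10 genes of this core were measured here in blood leukocytes of mice with and without mammary tumors: the ligand Tgfb1, the receptors Tgfbr1 and Tgfbr2, the signaling SMADs Smad2, Smad3 and Smad4, the inhibitor Smad7, and the nuclear repressors Ski, Skil and Tgif1. They were chosen by gene symbol, and 10 of 10 were found among the 18193 genes of the table, with 23 of its 45037 probe sets.

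The samples were total white blood cells of female FVB/NJ mice. Tumor-bearing mice carried c-MYC, or a more stable point variant of it, behind the hormone-responsive LTR of the mouse mammary tumor virus (genotype MMTV/c-MYC transgenic), and came from several transgenic lines kept in continuous breeding. Controls were wild type, tumor-free, matched for age and parity, and kept under the same breeding conditions; the last bleed was taken at an average age of 431 days. Each sample was read on 1 expression array. The tumor arrays are described in 2 sets by the number in their label, which fall on either side of a technical divide: 52 arrays numbered 6 to 32 in the training cohort and 9 to 33 in the validation cohort (late-numbered, here late arrays), and 13 arrays numbered 1 to 5 and 1 to 8 (early-numbered, here early arrays). Late and early refer to the label number only, not to tumor stage. The 28 control arrays were 14 of each cohort. The paper divided the mouse samples at random into the training and validation cohorts, so like values in both are no independent replication. The labels name no animals, so p-values measure the spread between these arrays. MMTV-driven expression is aimed at mammary epithelium, and the transgene and the tumor cannot be told apart in this design. By quantitative RT-PCR the paper reports little to no c-MYC RNA in blood cells of the transgenic mice, relative to their mammary tumors. It also compared array signals of Myc probe sets between its groups of mice and reports no significant differences. From both it proposes that c-MYC expression in blood cells did not give rise to its blood signature.

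The divide between late and early arrays was visible in control probe sets. The bacterial spike-in dap had a log2 signal of 6.57 to 10.8 on late arrays, 2.11 to 3.83 on early arrays and 1.74 to 3.55 on control arrays. The 5′ minus 3′ difference of the actin control averaged -0.54 on late arrays, -1.42 on early arrays and -0.64 on control arrays. Array set and technical handling therefore cannot be told apart in any comparison that involves late or early arrays. Marker lists also differed: neutrophil markers averaged 11.45 on late, 10.58 on early and 10.71 on control arrays, and B cell markers 8.39, 8.25 and 9.29 in that order of sets. Pan-leukocyte markers averaged 12.89, 12.77 and 12.81, and mammary epithelial markers 3.63, 3.65 and 3.41 against a median of 4.79 over all probe sets. In bulk blood, fewer cells of a type and less RNA per cell cannot be told apart. By blood counts after euthanasia the paper reports similar leukocyte profiles in tumor-bearing mice and matched controls. It does not give these counts by late and early arrays. The median correlation with arrays of the own set was under 0.95 on 5 arrays (early training 4, early validation 2 and 6, late validation 9 and 19).

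In late arrays 7 of the 10 genes were called different from control at an adjusted p under 0.05 by limma, 2 higher (Tgfb1 and Smad2) and 5 lower (Tgfbr1, Tgfbr2, Smad3, Smad4 and Ski). The background was high: 46.2% of all genes, each read by its brightest probe set, were called in this comparison, 25.6% higher and 20.5% lower. In early arrays 8 of 10 were called against control, 3 higher (Tgfbr1, Smad4 and Skil) and 5 lower (Tgfb1, Tgfbr2, Smad2, Smad7 and Tgif1), where 63.3% of all genes were called, 34.3% higher and 29% lower. In late against early arrays 10 of 10 were called, 5 in each direction, where 69.8% of all genes were, 31.5% higher and 38.3% lower. Without the 5 arrays with low correlation the counts were 8, 8 and 10, and with 3 components of the control probe sets as covariates they were 2, 6 and 4. The components hold the spike-in signal that divides late arrays from the rest, so they overlap with the late set itself. A late value lost or turned with them, here or below, cannot be assigned to the array set or to handling. Median log2 differences over the 10 genes were -0.12, -0.22 and 0.02, against 0.04, 0.07 and -0.08 over all genes. The 2 comparisons with control share the control arrays, so their values stand side by side and are not independent. Most differences from control of the brightest probe sets were small on the log2 scale. By size 2 of them stood out: Tgfb1 in late arrays and Tgif1 in early arrays. Another probe set of Smad4, 1422486_a_at, was 0.89 lower in late arrays than control, against 0.24 on its brightest. With the tumor arrays pooled, 6 of 10 were called against control, 2 higher and 4 lower, where 42.3% of all genes were, 22.7% higher and 19.6% lower.

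**Figure D1:**
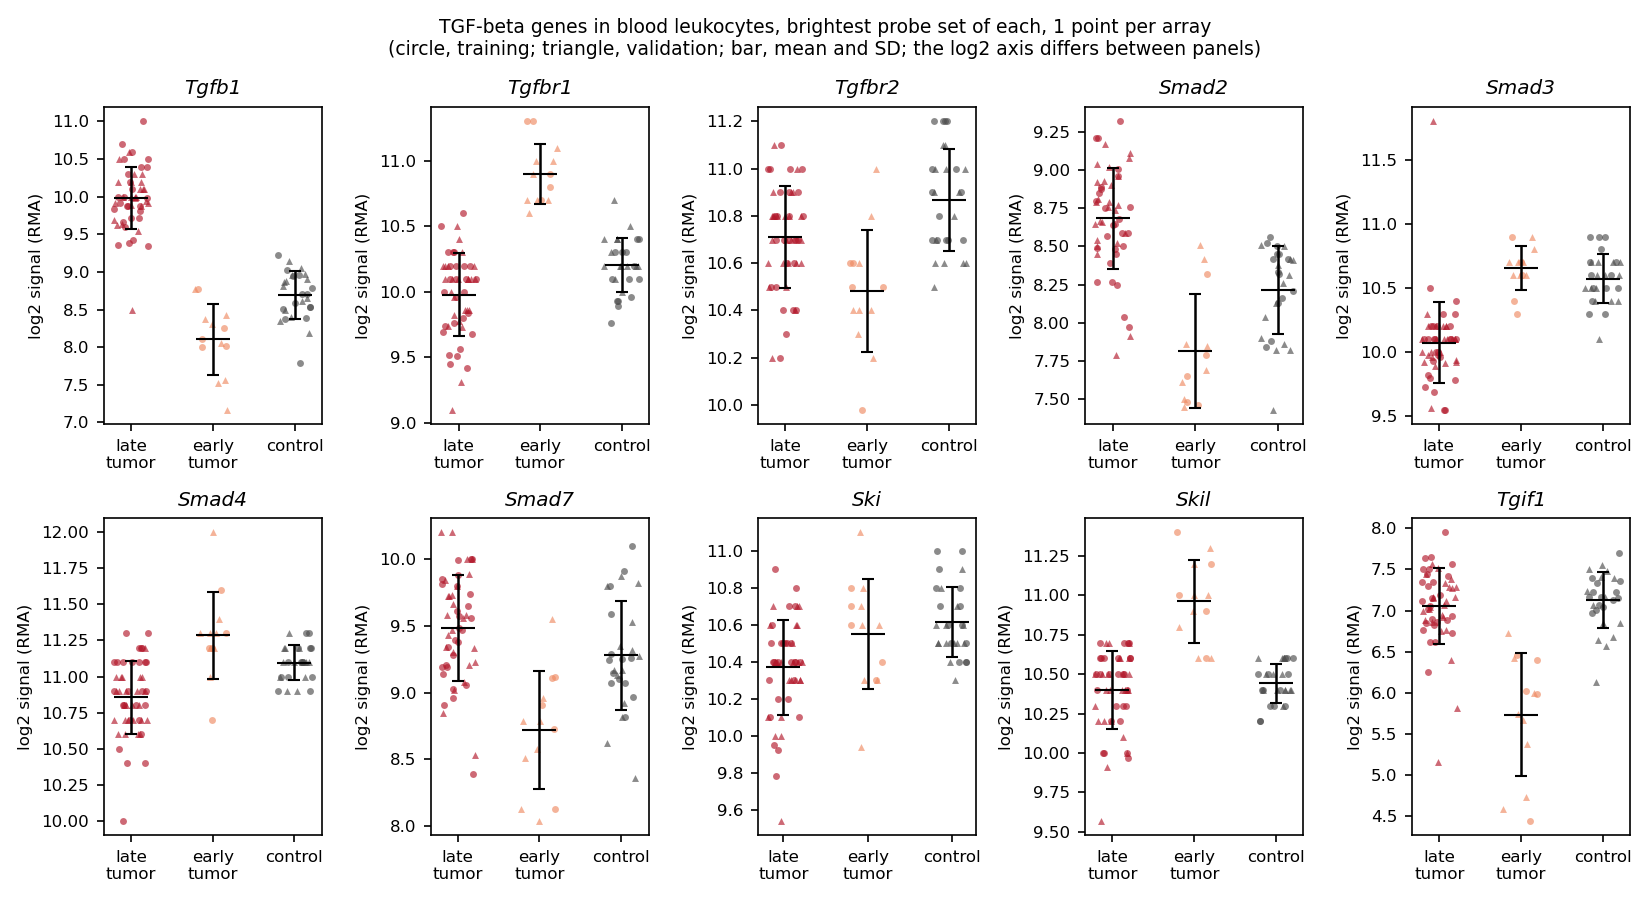
Log2 signal (RMA) of the 10 genes on each array, one panel per gene with its own axis, for 52 late tumor, 13 early tumor and 28 control arrays. Points are arrays (circle, training; triangle, validation) and bars the mean and SD; Tgfb1 lies above every control array on 51 of 52 late arrays, and Tgif1 lies below every control array on 9 of 13 early arrays.

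The ligand Tgfb1 had the largest difference of the 10 in late arrays. Its brightest probe set, 1420653_at, had a lowest, median and highest log2 signal of 8.5, 9.99 and 11 on late arrays, 7.17, 8.11 and 8.77 on early arrays, and 7.79, 8.705 and 9.23 on control arrays. Of the 52 late arrays, 51 lay above every control array, and 51 above every early array; the exception was late validation array 19. Arrays of late and control sets did not overlap at all in 0.278% of probe sets, and Tgfb1 was not among these. For counts of arrays beyond every control array where the sets overlap, in text and figures, no share over all probe sets is given. The late-minus-control difference was 1.29 ± 0.093 (SE, log2), a 2.45-fold higher signal (adjusted p = 1.81e-22, limma), larger than 99.1% of the absolute differences of probe sets. Against early arrays it was 1.88 ± 0.123, or 3.67-fold (adjusted p = 1.97e-25). Early arrays lay 0.58 below control in the same fit (adjusted p = 9.82e-05), a 1.5-fold lower signal. The second probe set, 1445360_at, was 0.98 ± 0.095 higher in late arrays than control and 0.20 ± 0.136 lower in early arrays, where it did not pass (adjusted p = 0.186). This probe set was dim and averaged 5.38, 4.20 and 4.40 on late, early and control arrays. Within cohorts the late-minus-control difference of the brightest probe set was 1.35 in training and 1.23 in validation arrays. It was not kept with 3 principal components of the control probe sets, spike-ins included, as covariates (-0.14 ± 0.327, adjusted p = 0.804), and in the other alternatives it ran from 1.14 to 1.35 and was called in each. With the same components the late-minus-early difference was 0.37 (adjusted p = 0.467), and in training arrays alone the early-minus-control difference was -0.42 (adjusted p = 0.0819).

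The sequence before the Tgfb1 start is shown because this gene had the largest late-minus-control difference of the 10. Smad3 stands beside it, as its brightest probe set had the lowest such value of the 10 brightest probe sets. Smad4 probe set 1422486_a_at lay lower, at -0.89, and the mean of the Smad3 probe sets was near control. RefSeq windows of 250 bases before the start were taken on GRCm38.p6, and the capitals mark GGGCGG on either strand, the GC box that SP1 binds. For Tgfb1 the window is chr7:25686752-25687001 on the plus strand and for Smad3 it is chr9:63757995-63758244 on the minus strand.
Tgfb1: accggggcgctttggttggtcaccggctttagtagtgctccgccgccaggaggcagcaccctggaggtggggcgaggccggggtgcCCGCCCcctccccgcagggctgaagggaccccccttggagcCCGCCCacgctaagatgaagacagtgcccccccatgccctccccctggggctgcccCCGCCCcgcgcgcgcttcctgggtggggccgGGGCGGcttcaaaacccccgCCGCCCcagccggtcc
Smad3: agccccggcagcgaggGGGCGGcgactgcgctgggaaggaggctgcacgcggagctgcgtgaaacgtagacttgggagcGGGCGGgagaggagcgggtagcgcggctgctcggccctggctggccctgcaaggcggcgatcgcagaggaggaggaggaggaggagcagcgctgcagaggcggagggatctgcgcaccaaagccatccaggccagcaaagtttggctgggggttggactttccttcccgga
Tgfb1 held 5 matches and Smad3 held 2, and 32.7% of 32851 such windows of all genes held at least 1. A search of both windows for CAGAC (held by 42.2% of all windows), GTCTAGAC (0.167%), CACGTG (6.02%) and TGANTCA (6.75%) on both strands found 0 matches. Among the other members searched, CAGAC stood in the Tgfbr2 window and in some windows of Tgfbr1 and Tgif1, and not in the Ski window. These are matches of letters, not sites.

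Tgfb1 correlated with platelet markers across late and across control arrays. Its relation to the spike-in signal within a set was not tested. Of the other marker lists, its r is given for neutrophils alone, so the platelet relation is not shown to be particular. The mean of 10 platelet genes (Pf4, Ppbp, Itga2b and others) ran from 7.99 to 13.05 on late arrays, 11.54 to 12.3 on early arrays and 11.67 to 12.6 on control arrays, with means of 12.26, 11.99 and 12.19. After each cohort's mean was taken off, Tgfb1 and the platelet mean correlated with r = 0.78 over 52 late arrays (rho = 0.84) and r = 0.87 over 28 control arrays (rho = 0.82), with permutation p = 1e-05 for each of the 4, the smallest that 100000 resamples can give. Adjusted over the 110 member and marker relations of each set, the p for r was 0.000367 in both. Without the 2 arrays farthest from the median platelet value, r was 0.80 and 0.80. Over 13 early arrays r was 0.65 (permutation p = 0.0156, adjusted p = 0.13). Late validation array 19, the late array with the lowest Tgfb1, had the lowest platelet mean of 7.99, the lowest monocyte mean and the highest T cell mean of the late arrays. It also had the lowest spike-in dap signal of the late arrays, 6.57. With the platelet mean as a covariate, a fit added after seeing the data, the late-minus-control difference of Tgfb1 was 1.25 ± 0.066 (adjusted p = 5.82e-31) and the early difference was -0.48 ± 0.096. Neutrophil markers rose in 8 of 11 genes in late arrays, and across late arrays the r of Tgfb1 with their mean was 0.04 (rho = -0.10, permutation p = 0.803 and 0.494; r = 0.04 without the 2 farthest arrays).

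**Figure D2:**
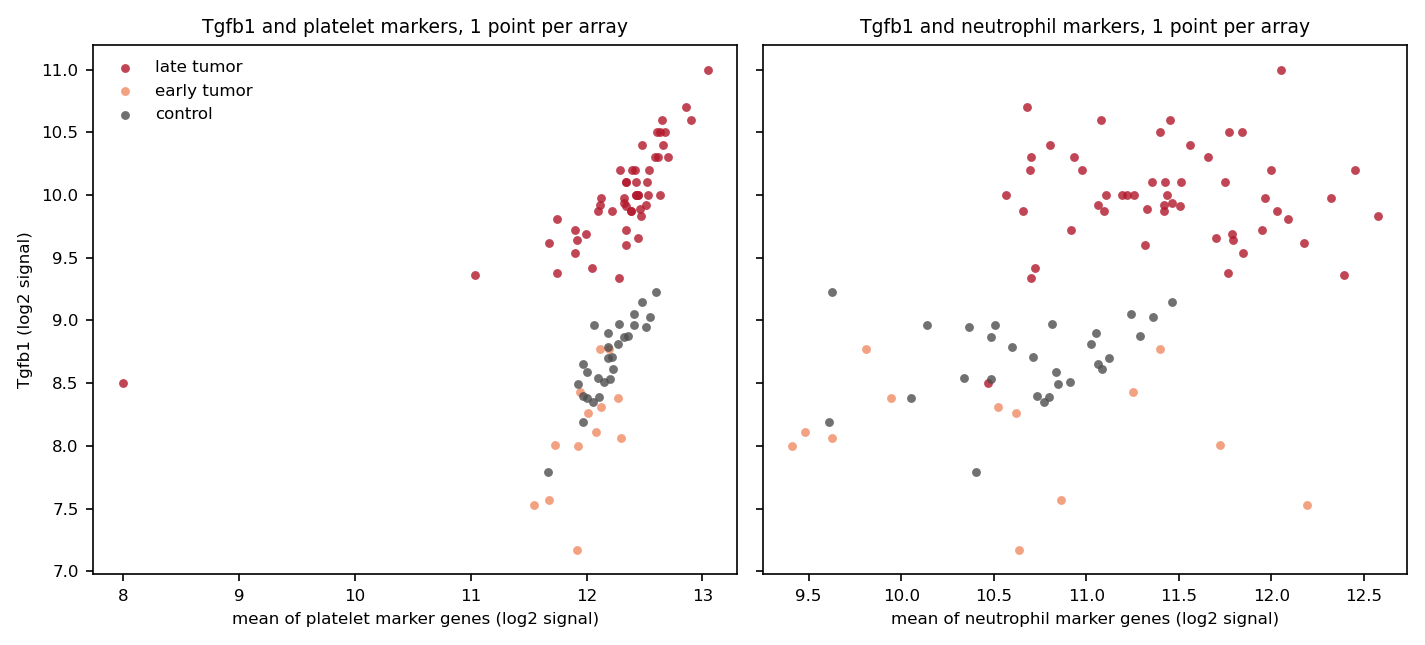
Tgfb1 log2 signal against the mean log2 signal of platelet markers (left) and neutrophil markers (right), 1 point per array, colored by set. Tgfb1 climbs with the platelet mean in late (r = 0.78) and control arrays (r = 0.87), and the late points lie above the control points at like platelet values.

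The type 1 receptor Tgfbr1, the kinase that phosphorylates SMAD2 and SMAD3, was higher in early arrays by its brightest probe set. Probe set 1420895_at had a lowest, median and highest of 9.1, 10.1 and 10.6 on late arrays, 10.6, 10.9 and 11.3 on early arrays, and 9.76, 10.2 and 10.7 on control arrays. The early set lay 0.69 ± 0.094 above control (adjusted p = 9.39e-10), 8 of its 13 arrays being above every control array. The late set lay 0.22 below control (adjusted p = 0.00299) and 0.92 below the early set (adjusted p = 2.0e-16). The other 2 probe sets did not follow: 1420894_at was 0.96 ± 0.236 lower in early arrays than control and 1.11 ± 0.218 higher in late than early arrays, and 1420893_a_at was 0.72 ± 0.105 higher in late arrays than control. The direction of Tgfbr1 thus depends on the probe set read, and the probe sets differ in brightness. On late, early and control arrays 1420894_at averaged 7.19, 6.08 and 7.03. The dimmest, 1420893_a_at, averaged 4.40, 3.94 and 3.68, below the median of 4.79 over all probe sets. The late difference was also 0.27 (adjusted p = 0.485) with 3 control components as covariates, and -0.15 (adjusted p = 0.225) in training arrays alone.

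Tgfbr2, the ligand-binding type 2 receptor, was lower in both tumor sets by its brightest probe set. The values on 1426397_at were 10.2, 10.7 and 11.1 (lowest, median, highest) on late arrays, 9.98, 10.5 and 11 on early arrays, and 10.5, 10.9 and 11.2 on control arrays. Late arrays were 0.16 below control (adjusted p = 0.0106) and early arrays 0.38 below (adjusted p = 1.2e-05). The sets overlapped widely, with 7 of 52 late arrays and 6 of 13 early arrays below every control array. The probe set 1425444_a_at went the other way in late arrays, 0.61 ± 0.076 higher than control (adjusted p = 4.56e-11), and was -0.47 ± 0.110 from control in early arrays. The third, 1422019_at, was 0.07 ± 0.051 from control in late arrays (adjusted p = 0.319) and 0.31 ± 0.074 higher in early arrays (adjusted p = 0.000228). On late, early and control arrays 1425444_a_at averaged 6.12, 5.04 and 5.51. The third averaged 2.01, 2.25 and 1.95, below the median of 4.79 over all probe sets. The late difference of the brightest probe set was 0.32 (adjusted p = 0.217) with 3 control components, -0.13 (adjusted p = 0.0673) with neutrophil, B and T cell marker means as covariates, and -0.10 (adjusted p = 0.358) in validation arrays alone. The early difference was -0.11 (adjusted p = 0.415) with the marker means. Across 28 control arrays Tgfbr2 correlated with the B cell marker mean (r = 0.77, rho = 0.77, permutation p = 1e-05, adjusted p = 0.000367; r = 0.76 without the 2 farthest arrays). Across 52 late arrays r was 0.07 (permutation p = 0.633), and the difference between these correlations was not tested.

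Among the receptor-activated SMADs, Smad2 and Smad3 differed from control in opposite directions in late arrays. Smad2 (1420634_a_at) had values of 7.79, 8.71 and 9.32 on late arrays, 7.45, 7.69 and 8.51 on early arrays, and 7.43, 8.315 and 8.56 on control arrays. It was 0.47 ± 0.078 higher in late arrays (1.39-fold, adjusted p = 2.18e-07), with 36 of 52 late arrays above every control array. It was 0.40 lower in early arrays (adjusted p = 0.00135), a call that 6 of 20 alternatives lost. The early difference was -0.56 in training arrays and -0.27 in validation arrays (adjusted p = 0.159), and -0.16, -0.12 and -0.24 with the actin difference, 3 control components and the leukocyte marker means as covariates (adjusted p = 0.422, 0.391 and 0.193). The mean of the Smad2 probe sets was 0.04 from control in late arrays (adjusted p = 0.728). Smad3 (1454960_at) had values of 9.55, 10.1 and 11.8 on late arrays, 10.3, 10.7 and 10.9 on early arrays, and 10.1, 10.6 and 10.9 on control arrays. It was 0.50 ± 0.064 lower in late arrays (1.41-fold, adjusted p = 8.19e-11), with 23 of 52 late arrays below every control array, and 0.08 ± 0.091 from control in early arrays (adjusted p = 0.462). The late difference of Smad3 was 0.34 (adjusted p = 0.298) with 3 control components as covariates, and -0.01 (adjusted p = 0.934) on the mean of its 3 probe sets. The 11.8 belonged to late validation array 19, and the next highest late array read 10.5. Smad3 fell as platelet markers rose across late arrays (r = -0.76, rho = -0.43, permutation p = 0.00015 and 0.00152, adjusted p = 0.00165 and 0.00597), and r was -0.42 without the 2 farthest arrays, so a large part of r came from them. The dimmer probe sets disagreed for both genes: 1442062_at of Smad2 was 0.39 ± 0.110 lower in late arrays than control, and 1450471_at of Smad3 was 0.37 ± 0.097 higher, while 1450472_s_at of Smad3 did not pass (0.11 ± 0.095, adjusted p = 0.367).

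Smad4, the partner shared by all signaling SMADs, was lower in late arrays. Its values on 1422487_at were 10, 10.9 and 11.3 on late arrays, 10.7, 11.3 and 12 on early arrays, and 10.9, 11.1 and 11.3 on control arrays. The late set lay 0.24 below control (adjusted p = 0.000121) and the early set 0.19 above it (adjusted p = 0.0291). The early call was lost in 5 of 20 alternatives, among them training arrays alone (0.10, adjusted p = 0.573), the actin difference as a covariate (0.03, adjusted p = 0.843) and leaving out early training array 1 (0.16, adjusted p = 0.0685); validation arrays alone gave 0.24. The late difference was 0.09 (adjusted p = 0.79) with 3 control components and -0.21 (adjusted p = 0.0592) in training arrays alone. The second Smad4 probe set showed a larger change: 1422486_a_at was 0.89 ± 0.059 lower in late arrays than control (adjusted p = 1.13e-24) and 0.96 ± 0.078 lower than in early arrays, and its late and early arrays did not overlap (1.67% of probe sets did so). Probe set 1422486_a_at averaged 10.10, 11.07 and 10.99 on late, early and control arrays, nearly as bright as 1422487_at. On it 50 of 52 late arrays lay below every control array. The third, 1422485_at, was 0.00 ± 0.067 from control in late arrays and 0.39 ± 0.096 higher in early arrays.

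The inhibitor Smad7 was lower in early arrays, while its late difference did not pass. Probe set 1423389_at had values of 8.39, 9.52 and 10.2 on late arrays, 8.04, 8.79 and 9.55 on early arrays, and 8.36, 9.245 and 10.1 on control arrays. Late arrays lay 0.21 above control (adjusted p = 0.0708; interval 0.02 to 0.39 unadjusted) and early arrays 0.56 below (adjusted p = 0.000275). The cross-hybridizing type probe set 1443771_x_at was lower than control in late arrays by 0.27 ± 0.078 and in early arrays by 0.26 ± 0.112 (adjusted p = 0.0391, limma). In late against early arrays it was -0.01 ± 0.104 (adjusted p = 0.909, limma), where 1423389_at was 0.76 ± 0.126 higher. Smad7 followed the T cell marker mean in control arrays (r = 0.84, rho = 0.81, permutation p = 1e-05, adjusted p = 0.000367; r = 0.81 without the 2 farthest arrays) and less closely by value in late arrays (r = 0.43, adjusted p = 0.00801), a difference that was not tested. T cell markers were lower in 10 of 12 measured genes in early arrays and in 6 of 12 in late arrays. With neutrophil, B and T cell marker means as covariates the early difference of Smad7 was -0.07 ± 0.140 and was not called (adjusted p = 0.739), and with the actin difference as a covariate it was -0.15 ± 0.190 (adjusted p = 0.529). With 3 control components it was -0.34 (adjusted p = 0.0525), and the late difference was 1.18 and called (adjusted p = 0.00735).

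Ski and Skil are related repressors of SMAD-bound genes, and Tgif1 is a homeodomain repressor of the same targets. Ski (1426373_at) had 9.54, 10.4 and 10.9 on late arrays, 9.94, 10.6 and 11.1 on early arrays, and 10.3, 10.6 and 11 on control arrays, and was 0.25 lower in late arrays (adjusted p = 0.000258) and 0.06 ± 0.084 below control in early arrays (adjusted p = 0.549). Skil (1452214_at) had 9.57, 10.5 and 10.7 on late arrays, 10.6, 11 and 11.4 on early arrays, and 10.2, 10.4 and 10.6 on control arrays. It was 0.52 ± 0.077 higher in early arrays than control (adjusted p = 1.21e-08), where 10 of 13 early arrays lay above every control array, and -0.04 ± 0.054 from control in late arrays (adjusted p = 0.544). The other Skil probe set, 1422054_a_at, was higher in late arrays by 0.72 ± 0.110 and lower in early arrays by 0.52. It averaged 5.24, 4.03 and 4.53 on late, early and control arrays, near the median of 4.79 over all probe sets. The other Ski probe set, 1429192_at, did not pass in late arrays (0.10 ± 0.063, adjusted p = 0.222) and was lower in early arrays by 0.36. The late difference of Ski lost its call with 3 control components (-0.25, adjusted p = 0.478), with the leukocyte marker means (-0.13, adjusted p = 0.116) and in validation arrays alone (-0.21, adjusted p = 0.0654), and its early difference was 0.28 and called with the actin difference as a covariate (adjusted p = 0.0323). For Skil the mean of both probe sets was 0.34 higher than control in late arrays (adjusted p = 2.5e-05) and 0.0031 from control in early arrays (adjusted p = 0.98).

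Tgif1 showed the largest fall of the 10 genes, in early arrays. It was read by 1 probe set, 1422286_a_at, with values of 5.16, 7.095 and 7.95 on late arrays, 4.45, 5.99 and 6.73 on early arrays, and 6.13, 7.16 and 7.7 on control arrays. Of the 13 early arrays, 9 lay below every control array. Early and control arrays did not overlap at all in 1.3% of probe sets, and Tgif1 was not among these. The early-minus-control difference was -1.37 ± 0.159, a 2.58-fold lower signal (adjusted p = 4.64e-12). Late arrays were -0.07 ± 0.111 from control (interval -0.29 to 0.14, adjusted p = 0.626) and 1.29 ± 0.147 above early arrays (adjusted p = 6.74e-13). The late-minus-control value turned to 0.96 ± 0.392 (adjusted p = 0.0737) with 3 control components and to 0.15 ± 0.113 (adjusted p = 0.316) with the leukocyte marker means as covariates. The early difference was -1.35 in training and -1.38 in validation arrays. In late arrays Tgif1 correlated with the B cell marker mean (r = 0.51, rho = 0.52, permutation p = 0.00013 and 0.00015, adjusted p = 0.00159 and 0.00103; r = 0.46 without the 2 farthest arrays). B cell markers were lower than control in 11 of 13 measured genes in early arrays and in 12 of 13 in late arrays, while Tgif1 was called lower in early arrays only. T cell markers were lower in 10 of 12 in early arrays and in 6 of 12 in late arrays. Early arrays also had the lowest mean actin 5′ minus 3′ difference, -1.42, and with that difference as a covariate the early value of Tgif1 was -1.53 ± 0.229 (adjusted p = 6.25e-08). With the leukocyte marker means it was -0.59 ± 0.180 (adjusted p = 0.00696), and with 3 control components -1.16 ± 0.176 (adjusted p = 5.08e-08).

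**Figure D3:**
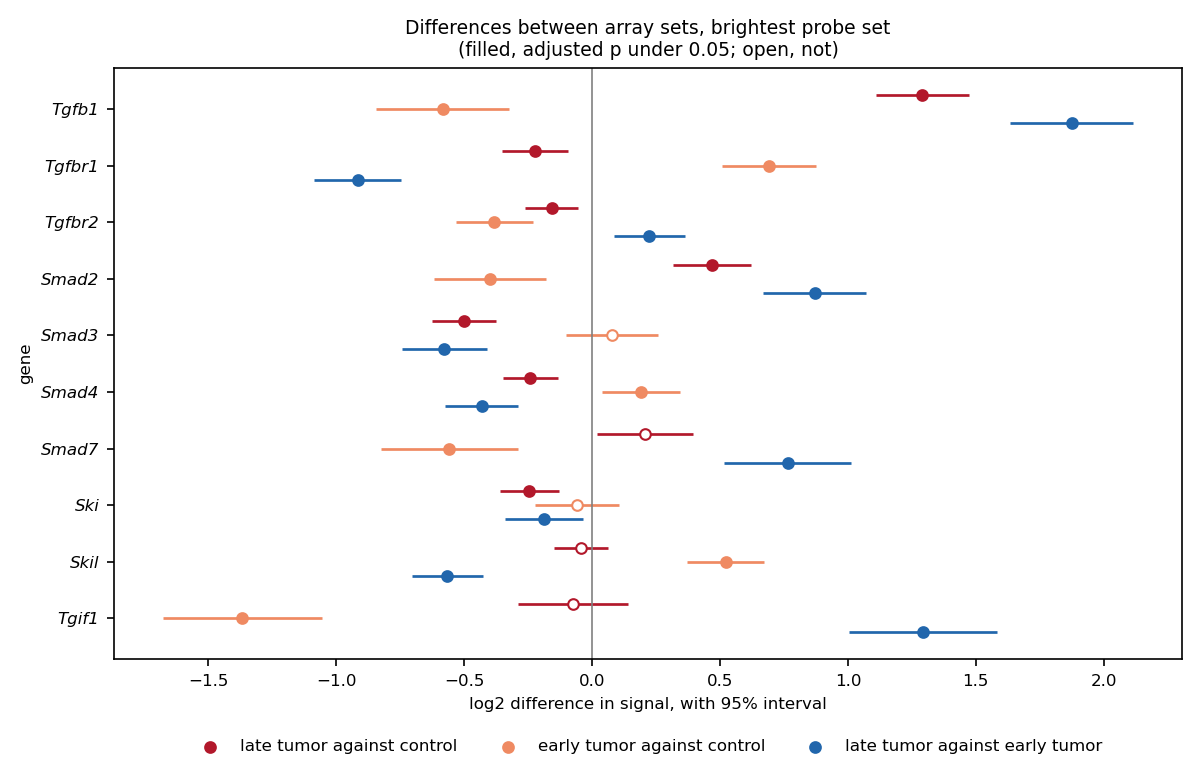
Log2 differences of the 10 genes (y axis) between array sets with 95% intervals, brightest probe set of each, filled where the adjusted p was under 0.05. Tgfb1 stands at 1.29 in late arrays against control and at 1.88 against early arrays, and Tgif1 at -1.37 in early arrays against control.

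Counting every probe set, 7 of 23 were higher and 8 lower in late arrays against control, 5 higher and 10 lower in early arrays against control, and 12 higher and 9 lower in late against early arrays. Over all 45037 probe sets the share called was 43.8% in late against control arrays (23.9% higher, 19.9% lower), 62.6% in early against control arrays (37.9% higher, 24.6% lower) and 68% in late against early arrays (27% higher, 41% lower). With tumor arrays pooled 7 of the 23 were higher and 7 lower, where 41.7% of all probe sets were called, 23.4% higher and 18.2% lower. Among the genes with more than 1 probe set, Tgfb1 was the one in which every probe set was called in 1 direction in late against control. Calls in both directions stood within single genes in late arrays for Tgfbr1, Tgfbr2, Smad2 and Smad3. On the mean of a gene's probe sets the late-minus-control difference was 0.22 for Tgfbr1, 0.17 for Tgfbr2 and 0.34 for Skil, each called, and -0.01 ± 0.060 for Smad3 (adjusted p = 0.934, limma). These means join bright probe sets with dim ones, some of them below the median of 4.79 over all probe sets.

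**Figure D4:**
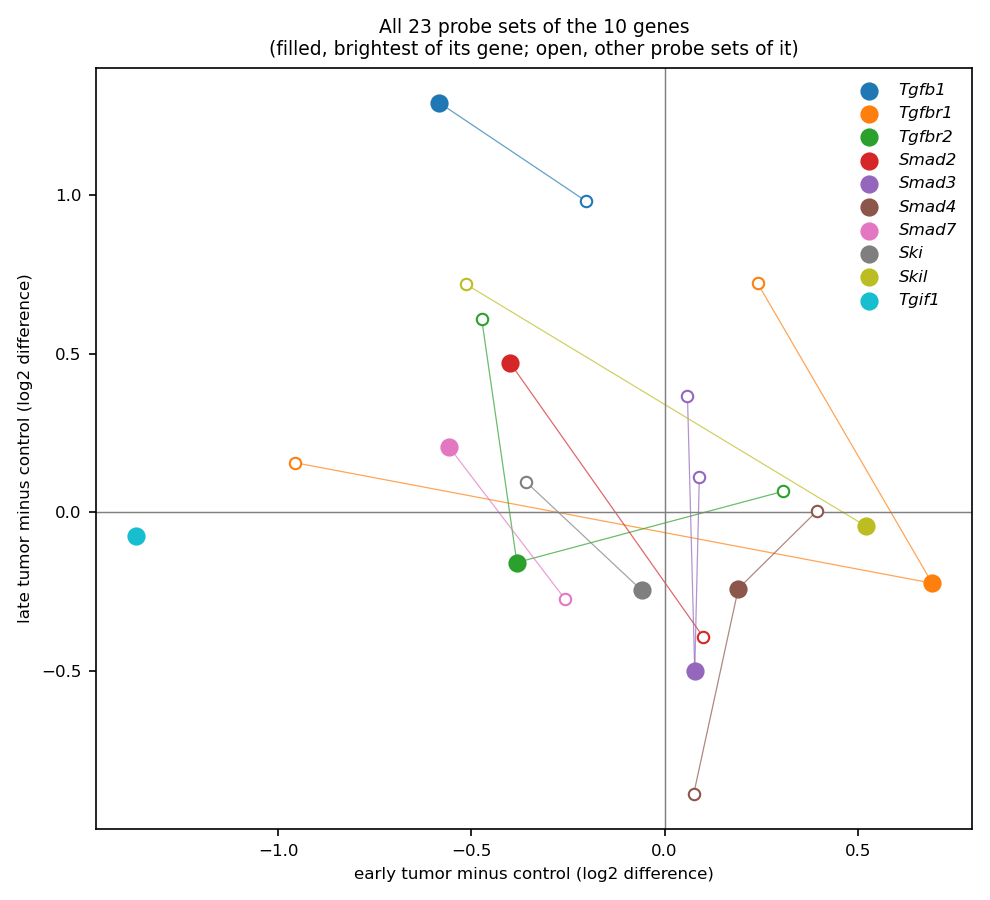
Late-minus-control (y) against early-minus-control (x) log2 difference of all 23 probe sets of the 10 genes; filled points are the brightest probe set of a gene and lines join its others to it. Both Tgfb1 points lie at the top, at 1.29 and 0.98, while those of Tgfbr1, Skil and Smad2 lie apart.

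The differences were also set against each other between the cohorts, which were a random division of 1 set of samples. For the 3 set comparisons 0 of 10 genes were called for an interaction with cohort, 0 had an unadjusted p under 0.05, and the lowest adjusted p was 1.0, 0.482 and 0.545. Over all probe sets 0, 145 and 262 interactions were called, and 990, 5618 and 6377 had a p under 0.05. Within single cohorts, Smad3 in late arrays was -0.59 in training and -0.41 in validation arrays against control.

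Several of the genes varied together within a set. Of 45 gene pairs, 23 correlated across 52 late arrays at an adjusted p under 0.05, 12 across 28 control arrays and 3 across 13 early arrays. In late arrays Tgfbr2 and Skil reached r = 0.71 (rho = 0.73), Tgfbr1 and Skil 0.71 (rho = 0.65), and Tgfbr2 and Smad2 0.65 (rho = 0.58). For these 3 pairs the permutation p was 1e-05, the adjusted p was 6.43e-05 for r and 9e-05 for rho, and r was 0.67, 0.63 and 0.56 without the 2 arrays farthest from the median. In control arrays Tgfbr2 and Smad2 reached 0.70 (rho = 0.77, permutation p = 7e-05 and 1e-05, adjusted p = 0.00315 and 0.00045; r = 0.66 without the 2 farthest). Tgfb1 ran against several of the others: its r with Tgfbr2 was -0.61 in late (rho = -0.62, permutation p = 1e-05) and -0.51 in control arrays (rho = -0.59, permutation p = 0.00508 and 0.00107), with adjusted p = 6.43e-05 and 0.0327. With Skil its r was -0.39 in late (adjusted p = 0.0107) and -0.63 in control arrays (adjusted p = 0.00735). Arrays share cell makeup and array quality, so a correlation here does not speak of control of 1 gene by another.

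**Figure D5:**
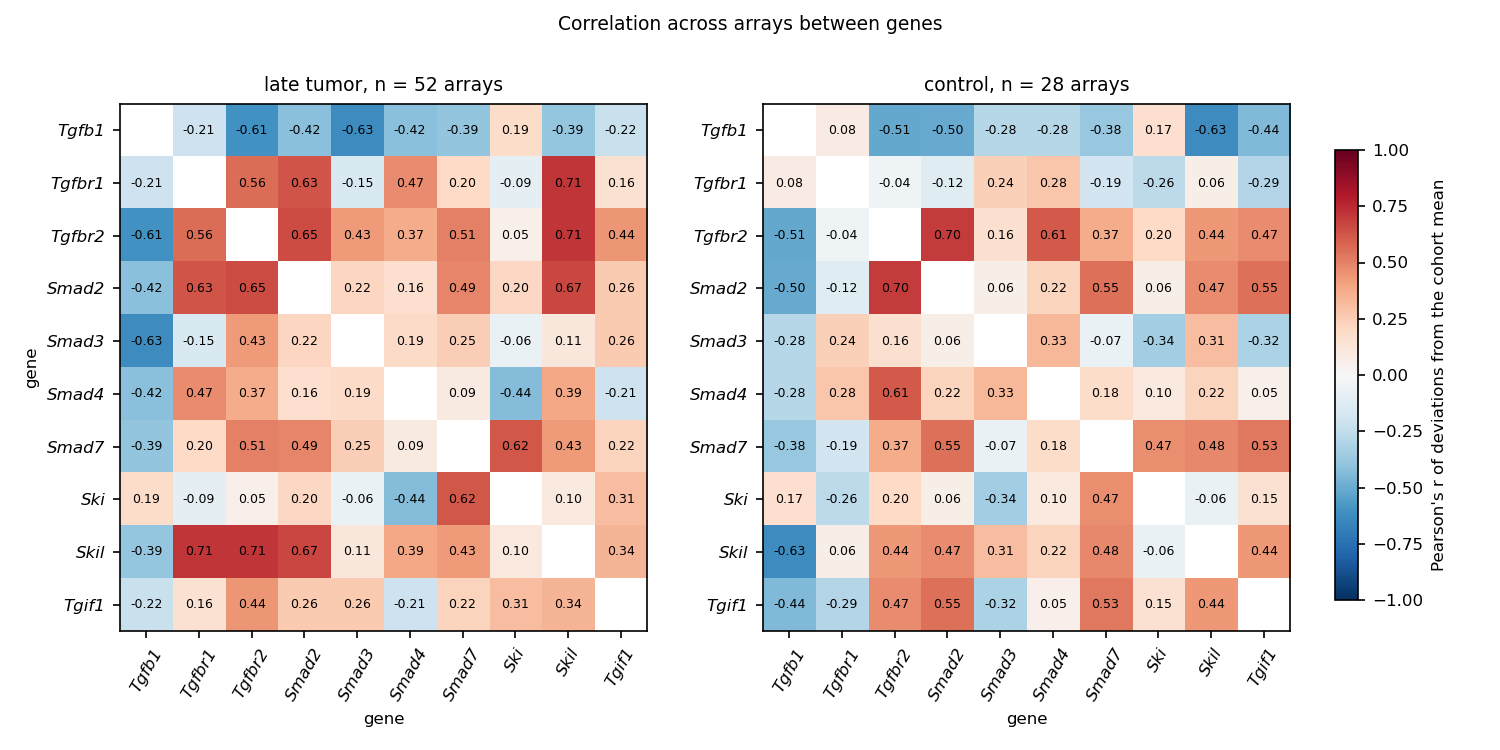
Pearson's r between the 10 genes across 52 late tumor arrays (left) and 28 control arrays (right), on deviations from the cohort mean. The Tgfb1 row is negative against most genes in both sets, and Skil, Tgfbr1, Tgfbr2 and Smad2 form a positive block in late arrays, with r from 0.56 to 0.71.

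Across all 93 arrays, on deviations from the set and cohort means, the 3 genes most like each member of 10594 compared were as follows, as a description with no test. Tgfb1 was most like Mtmr14 (r = 0.88), Capns1 (0.85) and Ufsp1 (0.83). Smad2 was most like Copb1 (0.80), Ssu72 (0.79) and Prex1 (0.79), and Tgfbr2 like Ctcf (0.77), Zfp869 (0.76) and Azi2 (0.75). Tgfbr1 was most like Gm2a, Ern1 and Macir, Smad3 like Mogs, Pfkp and Rpa2, and Smad4 like Stard7, Dnajc5 and Smarca2. Smad7 was most like Esyt2, Utrn and Tspyl4, Ski like Rc3h1, Gnb1 and Ppp6r3, Skil like Zbtb33, Pik3c2a and Alkbh5, and Tgif1 like Rpp30, Rpa3 and Osgin2. Within late and within control arrays alone, Tgfb1 and Mtmr14 had r = 0.94 and 0.79, and Skil and Pik3c2a 0.83 and 0.18.

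The rest of the pathway was counted over 8 lists of 117 genes, of which 109 were measured. In late arrays against control 36 were higher and 26 lower (56.9% called, against 46.2% of all genes), in early arrays 45 and 26 (65.1%, against 63.3%), and in late against early arrays 38 and 43 (74.3%, against 69.8%). Median differences were 0.04, 0.11 and -0.07, against 0.04, 0.07 and -0.08 over all genes. These lists were chosen with earlier results known, and no set test was run.

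Over all genes 25.6% were higher and 20.5% lower in late arrays against control, and 34.3% higher and 29% lower in early arrays, and the counts of each list are to be read against these shares. Of 11 superfamily ligands measured 1 was higher and 1 lower in late arrays, and 5 were higher in early arrays with 0 lower. Bmp2, a bone morphogenetic protein, averaged 6.95 on late, 9.03 on early and 7.89 on control arrays, and was 0.95 lower in late (adjusted p = 0.000199) and 1.17 higher in early arrays (adjusted p = 0.00101). Tgfb2 was 1.31 higher in early arrays (adjusted p = 9.46e-05), and Inhba, an activin subunit, 0.72 higher in late arrays (adjusted p = 0.00229). Both genes were dim. Tgfb2 averaged 3.31 on late and 3.71 on control arrays, below the median of 4.79 over all probe sets. On early arrays its mean lay slightly above that median. Inhba averaged 4.06, 3.93 and 3.34 on late, early and control arrays, below the median in each set. Among 13 genes of latency and activation 2 were higher and 2 lower in late arrays, and 5 higher and 1 lower in early arrays. Nrros, which anchors latent ligand on myeloid cells, averaged 9.96, 8.80 and 8.89 on late, early and control arrays and was 1.07 ± 0.092 higher in late arrays (adjusted p = 3.98e-18) and -0.09 from control in early arrays (adjusted p = 0.541). Itgav, an integrin subunit that takes part in activation, was 0.26 lower in late and 0.35 higher in early arrays. Furin, the protease that cleaves the precursor, was 0.15 higher in late and 0.51 higher in early arrays.

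Of 13 other receptors 6 were higher and 2 lower in late arrays, and 5 higher and 4 lower in early arrays. Eng, the co-receptor endoglin, was 0.52 higher in late arrays (adjusted p = 2.66e-08) and -0.14 from control in early arrays (adjusted p = 0.298), and Bambi, a pseudoreceptor that dampens signaling, was 0.75 higher in late arrays and 0.46 lower in early arrays. Eng averaged 5.14, 4.49 and 4.62 and Bambi 5.32, 4.10 and 4.57 on late, early and control arrays, near the median of 4.79 over all probe sets. Acvr2a, an activin receptor, was 0.54 lower in late arrays (adjusted p = 4.1e-15) and 0.23 higher in early arrays. Of the 4 other SMADs, Smad1 and Smad5, which carry bone morphogenetic protein signals, were 0.47 and 0.53 lower in late arrays, with Smad1 0.31 higher and Smad5 0.76 lower in early arrays, and the inhibitor Smad6 was 0.36 higher in early arrays at a mean of 2.95. Among 19 adaptors, phosphatases and ubiquitin ligases 4 were higher and 9 lower in late arrays, and 9 higher and 7 lower in early arrays. Ppm1a, a phosphatase of SMAD2 and SMAD3, was 0.43 ± 0.033 lower in late arrays (adjusted p = 1.7e-20) and 0.20 lower in early arrays, Trim33 0.43 lower in late and 0.44 lower in early arrays, and Usp9x, a SMAD4 deubiquitinase, 0.56 lower in late and 0.24 higher in early arrays. Of 18 nuclear cofactors 5 were higher and 5 lower in late arrays, and 6 higher and 6 lower in early arrays. Crebbp, a histone acetyltransferase, was 0.23 lower in late arrays and 0.45 higher in early arrays (adjusted p = 7.77e-11). Rbl1 was 0.73 lower in late and 0.55 lower in early arrays, and Zeb1 0.73 lower in late and 0.08 from control in early arrays (adjusted p = 0.531).

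Of 19 measured genes listed as targets that TGF-beta can induce in some other cells, 11 were higher and 0 lower in late arrays (median 0.39). Over all genes 25.6% were higher, and the median was 0.04. In early arrays 7 were higher and 4 lower (median 0.16), against 34.3% higher and 29% lower over all genes, and in late against early arrays 11 were higher and 5 lower, against 31.5% and 38.3%. Junb, an AP-1 subunit, averaged 7.82 on late, 6.58 on early and 6.33 on control arrays and was 1.5 ± 0.137 higher in late arrays (adjusted p = 7.97e-17) and 0.25 from control in early arrays (adjusted p = 0.273). Id1, an inhibitor of helix-loop-helix factors, was 1.29 ± 0.130 higher in late arrays (adjusted p = 9.2e-15) and 0.24 from control in early arrays (adjusted p = 0.268). Id3, of the same family, was 1.76 ± 0.153 lower in early arrays (adjusted p = 1.3e-17) and -0.06 ± 0.107 from control in late arrays (adjusted p = 0.675). Many other signals also induce these genes, and which signal acted here was not tested. Among 12 genes of the branches outside the SMADs, 6 were higher and 5 lower in late arrays, and 5 higher and 3 lower in early arrays. Shc1, an adaptor of receptor kinases, was 0.86 ± 0.058 higher in late arrays and 0.36 lower in early arrays, Rhoa was 0.36 higher in late and 0.11 higher in early arrays, and its kinase partner Rock1 was 0.24 lower in late and 0.56 higher in early arrays.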

How the data were processed

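Log2 expression values made with RMA were deposited by the authors for 93 Affymetrix mouse genome arrays. RMA corrects the background, quantile-normalizes and summarizes each probe set by median polish. Its version is not given in the sources used here, and whether the deposited log2 values include the study's standardization on control probe sets is not stated. Values carried at most 3 significant digits, so those of 10 or more moved in steps of 0.1. Arrays give no counts, and precision rests on their number.

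Control probe sets (64) were left out of the tests, leaving 45037. A gene was read by its single-symbol probe set with the highest mean, and other probe sets stand beside it. Limma 3.58.1 in R 4.3.3 (lmFit, eBayes with trend) compared late, early and control sets over the 93 arrays in a model with a cohort term, with tumor against control and the interaction with cohort as separate fits. Benjamini-Hochberg adjustment ran over all probe sets tested, two-sided, with calls at an adjusted p under 0.05. Correlations were made within a set on deviations from cohort means, with 100000 resamples. Code was tested on simulated data. The text names every member with all its probe sets, the 3 called genes with the smallest p per pathway list, and the 3 genes most like each member. The members and lists were chosen with earlier results of these data known. The study's factor models were not rebuilt. Tried alternatives were the intensity trend, a filter on dim probe sets, each cohort alone, array weights, re-normalization, marker and control covariates, the mean of a gene's probe sets, a replicate block and leaving out arrays.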

Additional observations from a re-analysis of the deposited data

Results flagged for a closer look

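In the early sets of 5 and 8 arrays, 20 gene and set pairs were examined for an array far from the others, and 3 stood apart. Chance alone gives about 1 in 20 if the pairs are independent. They were not, as Tgfbr2 and Tgif1 stood apart on the same array, so the 3 cannot be set against that rate. Tgfbr2 read 9.98 on early training array 4, where the other 4 arrays lay between 10.5 and 10.6. Tgif1 read 4.45 on the same array, against 5.99 to 6.46 on the others. Smad4 read 12 on early validation array 6, against 11 to 11.4 on the others. Both arrays are among the 5 with a median correlation to their own set under 0.95.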

How the results depend on the processing

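Of 780 values of single genes under the alternatives, 660 kept their direction and side of the threshold, 68 kept the direction and lost the call, 12 kept it and gained a call, and 40 changed sign, of which 8 were called. With 3 components of the control probe sets as covariates, 2 genes were called in late against control (7 otherwise) and 4 in late against early arrays (10 otherwise), and the signal of the spike-in that divides late arrays from the rest was part of these components. The log2 differences that changed sign there were -0.14 for Tgfb1, 0.27 for Tgfbr1, 0.32 for Tgfbr2, 0.34 for Smad3, 0.091 for Smad4, 0.42 for Skil and 0.96 for Tgif1 in late against control, 0.046 for Ski in early against control, 0.25 for Smad3 in late against early, and -0.44 for Tgfb1, 0.67 for Tgfbr1, 0.14 for Smad3, 0.25 for Smad4 and -0.029 for Smad7 with tumor arrays pooled. With the mean of a gene's probe sets, 6 genes were called in late against early and 3 with tumor arrays pooled (6 otherwise). Here the values that changed sign were 0.22 for Tgfbr1, 0.17 for Tgfbr2, -0.033 for Smad7 and 0.34 for Skil in late against control, -0.0074 for Tgfbr1 in early against control, 0.23 for Tgfbr1, 0.13 for Ski and 0.33 for Skil in late against early, and 0.17 for Tgfbr1, 0.10 for Tgfbr2, 0.0089 for Smad3 and -0.11 for Smad7 with tumor arrays pooled. With neutrophil, B and T cell marker means as covariates, 5 genes were called in early against control (8 otherwise), and 0.10 for Ski in early against control, 0.15 for Tgif1 in late against control, -0.030 for Tgfbr2 in late against early and 0.043 for Tgif1 with tumor arrays pooled changed sign. With the actin difference as a covariate, 6 genes were called in late against early, and 0.28 for Ski and -0.23 for Smad3 in early against control changed sign. In training arrays alone 0.011 for Skil in late against control, -0.034 for Smad3 in early against control and 0.0098 for Tgfbr1 with tumor arrays pooled changed sign, and in validation arrays alone 1 gene was called with tumor arrays pooled. With arrays shifted to a common median, 0.014 for Ski in early against control changed sign. Except where stated, the cause was not tested.

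Tumor and control arrays share numbers within a cohort, and the numbers did not pair them: over 28 pairs the correlation of deviations ran from -0.47 to 0.24, 11 were over 0.1, and 2 tumor arrays correlated best with their own number. With the replicate block 4 genes were called in late against control, 0.0067 for Skil in late against control and 0.014 for Smad4, -0.15 for Smad7 and 0.23 for Tgfbr1 with tumor arrays pooled changed sign, and 11990, 24308 and 18153 probe sets were called in the 3 set comparisons, against 19728, 28173 and 30619. Among the 22517 probe sets above the median mean, 15363, 13593 and 16295 were called. Leaving out any 1 of the 5 early training arrays gave 7 or 8 genes in early against control and 9 or 10 in late against early; without array 3 Ski was -0.17 there and not called (adjusted p = 0.0609).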
